A study of Mus musculus with 564 samples.

Results

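The regions described here are 882 of the 59190 cis-regulatory elements (CREs) of the dataset (1.49%), those that carried almost no H3K27ac in resting macrophages and a clear H3K27ac signal 4 h after lipopolysaccharide (LPS). H3K27ac is acetylation of lysine 27 on histone H3, found at enhancers and promoters in use, and was read out by ChIP-seq. The cells were macrophages grown from bone marrow (BMDMs) of male wild type C57/BL6 mice. A 1 h pre-treatment gave each culture either the vehicle DMSO or a single clinical kinase inhibitor (CKI), 58 in all, each at 1 concentration taken from its kinase binding data. The cells were then left unstimulated (UT) or given LPS or interleukin 4 (IL-4), each at 10 ng/mL, for 30 min, 1 h, 2 h or 4 h. DMSO cells gave 18 libraries, 2 for UT and for each time after each stimulus, and CKI-treated cells gave 546, of which 73 were UT, 241 LPS and 232 IL-4. Members were chosen by these values, in normalized read counts: both DMSO UT libraries read under 10 and both DMSO 4 h LPS libraries at least 50. Of all elements, 11105 (18.8%) met the first condition and 25014 (42.3%) the second. These 4 libraries chose the members, so their values are a description and were not tested, and tests used other libraries. The labels do not say whether replicates came from separate animals or cultures, so p-values measure the spread between these libraries.

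In macrophages the lineage factor PU.1 keeps most enhancers open and acetylated before any stimulus. LPS engages the receptor TLR4, which activates NF-kB, AP-1 and, through secreted interferon, STAT and IRF factors, and these act mostly on enhancers that already carry the mark. A smaller class of enhancers has no mark at rest and gains it after the stimulus. Such sites have been called latent or de novo enhancers. IL-4 signals through another receptor and the factor STAT6.

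The labelled cell type was checked on marker genes. Of 8 macrophage markers, 7 had an element within reach of their start and all 7 read a DMSO median of at least 50, from 201.5 to 2072. The 4 fibroblast and stromal markers with an element read medians of 0.5 to 11.5. Of the other lists, 2 of 3 T cell, 1 of 4 B cell, 1 of 3 neutrophil, 1 of 1 erythroid and 1 of 2 dendritic cell markers with an element reached 50, and their medians ran from 1 for Pax5 to 353.5 for Ms4a1. After scaling, 1 read was worth 1.0 to 2.55 in the DMSO libraries and 1.0 to 23.6 in the CKI libraries, which corresponds to about 2340000 to 5350000 and 172000 to 6130000 reads in elements, apart from 2 and 13 libraries whose values left no gaps to read this from. The contrast of a library, the median over the 10% of elements with the highest mean over all libraries divided by the median over the 10% with the lowest, was 53.0 to 134 in DMSO and 3.34 to 67.2 in CKI libraries. Since both measures differ between DMSO and CKI libraries, levels were compared within DMSO libraries or within CKI libraries and never between them.

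The central 300 bases of 9 elements are shown with their positions in mm10, read from the RefSeq assembly on the plus strand. They stand for the elements with the highest levels before 4 h (Lad1, Bcl2a1a, A730009L09Rik and Itgb8), one that still rose from 2 h to 4 h of LPS (Saa1), those that fell again (Tmem200b and Cab39l) and those that IL-4 also marked (both Rmi2 elements). Each is named after the nearest start of a protein-coding gene, which does not say that it acts on that gene. Capitals mark matches, on either strand, to NF-kB, AP-1 (TGANTCA), ISRE (GAAANNGAAA), C/EBP (TTGCNNAA), GAS (TTCNNNGAA) or PU.1 motifs.
Lad1 element, chr1:135814340-135814639: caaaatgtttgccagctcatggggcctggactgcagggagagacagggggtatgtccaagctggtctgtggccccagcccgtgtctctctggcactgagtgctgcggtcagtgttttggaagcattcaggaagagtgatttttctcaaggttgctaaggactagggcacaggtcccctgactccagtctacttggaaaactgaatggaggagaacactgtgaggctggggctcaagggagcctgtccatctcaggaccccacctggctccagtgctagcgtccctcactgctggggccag
Bcl2a1a element, chr9:88939407-88939706: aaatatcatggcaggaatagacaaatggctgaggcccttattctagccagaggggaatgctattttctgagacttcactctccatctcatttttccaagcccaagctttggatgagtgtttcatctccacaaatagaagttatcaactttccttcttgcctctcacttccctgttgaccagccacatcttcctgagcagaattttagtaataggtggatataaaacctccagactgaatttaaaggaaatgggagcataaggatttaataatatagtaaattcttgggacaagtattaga
A730009L09Rik element, chr16:84624902-84625201: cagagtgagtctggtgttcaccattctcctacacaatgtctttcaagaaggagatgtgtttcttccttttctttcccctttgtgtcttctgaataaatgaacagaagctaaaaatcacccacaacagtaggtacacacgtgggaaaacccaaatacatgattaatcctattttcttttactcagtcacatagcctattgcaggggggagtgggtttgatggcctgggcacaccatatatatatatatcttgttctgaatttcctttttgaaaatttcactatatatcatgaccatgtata
Itgb8 element, chr12:119107008-119107307: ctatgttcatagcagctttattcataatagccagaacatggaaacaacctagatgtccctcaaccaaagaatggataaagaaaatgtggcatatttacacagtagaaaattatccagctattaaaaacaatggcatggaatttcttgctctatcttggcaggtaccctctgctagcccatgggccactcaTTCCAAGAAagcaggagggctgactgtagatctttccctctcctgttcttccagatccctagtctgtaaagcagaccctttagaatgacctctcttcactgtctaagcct
Saa1 element, chr7:46745842-46746141: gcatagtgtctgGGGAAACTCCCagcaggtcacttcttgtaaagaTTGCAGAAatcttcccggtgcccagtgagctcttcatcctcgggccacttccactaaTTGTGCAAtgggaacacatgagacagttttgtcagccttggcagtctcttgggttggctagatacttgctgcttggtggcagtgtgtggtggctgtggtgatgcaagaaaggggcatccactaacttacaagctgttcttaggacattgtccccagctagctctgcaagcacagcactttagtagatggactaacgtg
Tmem200b element, chr4:131923793-131924092: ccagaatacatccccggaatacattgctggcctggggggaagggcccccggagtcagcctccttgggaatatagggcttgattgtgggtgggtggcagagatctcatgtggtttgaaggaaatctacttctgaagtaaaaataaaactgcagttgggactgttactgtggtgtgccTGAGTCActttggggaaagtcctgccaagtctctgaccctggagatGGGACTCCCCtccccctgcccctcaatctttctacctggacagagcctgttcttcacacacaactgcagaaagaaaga
Cab39l element, chr14:59536753-59537052: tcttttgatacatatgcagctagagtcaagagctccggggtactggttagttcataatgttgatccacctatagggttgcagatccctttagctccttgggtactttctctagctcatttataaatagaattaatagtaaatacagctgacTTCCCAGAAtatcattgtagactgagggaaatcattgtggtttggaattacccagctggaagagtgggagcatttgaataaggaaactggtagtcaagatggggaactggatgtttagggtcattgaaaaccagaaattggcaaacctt
First Rmi2 element, chr16:10842312-10842611: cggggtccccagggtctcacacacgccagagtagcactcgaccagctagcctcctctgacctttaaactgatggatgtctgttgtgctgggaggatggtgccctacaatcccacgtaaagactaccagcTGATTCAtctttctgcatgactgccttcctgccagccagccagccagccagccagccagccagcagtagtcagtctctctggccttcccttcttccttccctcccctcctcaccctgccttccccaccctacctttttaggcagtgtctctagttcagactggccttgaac
Second Rmi2 element, chr16:10846567-10846866: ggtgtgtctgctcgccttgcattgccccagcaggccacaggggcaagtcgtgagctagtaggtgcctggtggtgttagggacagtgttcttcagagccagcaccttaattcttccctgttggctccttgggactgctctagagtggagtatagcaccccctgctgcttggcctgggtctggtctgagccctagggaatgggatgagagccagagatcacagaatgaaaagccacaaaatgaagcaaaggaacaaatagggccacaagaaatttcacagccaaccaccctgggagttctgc

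The Saa1 window held 1 NF-kB match and 2 C/EBP matches, and the Tmem200b window an AP-1 and an NF-kB match. Itgb8 and Cab39l each held a GAS match and the first Rmi2 window an AP-1 match. The windows of Lad1, Bcl2a1a, A730009L09Rik and the second Rmi2 element held none of these letters. The Bcl2a1 genes are near-identical copies, and 74.8% of the 51-base words of the Bcl2a1a element occurred elsewhere in the genome, so its reads may belong to another copy. The Saa genes are also close paralogs, but 0% of the 51-base words of the Saa1 and Saa2 elements were repeated.

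H3K27ac at these elements rose step by step over the first 2 h of LPS. Over the 882 elements, the median normalized read count was 5 and 4 in the DMSO UT libraries, 20 and 21.5 at 30 min, 57 and 51 at 1 h, 102 and 100 at 2 h and 106 and 91.5 at 4 h of LPS. The replicates of a time lay close together and the medians at UT, 30 min, 1 h and 2 h did not overlap. At 30 min of LPS, 135 elements (15.3%) read at least 50 in both libraries. A further 291 (33%) first did so at 1 h, 306 (34.7%) at 2 h and 150 (17.0%) only at 4 h. The mean was highest at 4 h for 495 elements (56.1%), at 2 h for 322 (36.5%), at 1 h for 57 (6.46%) and at 30 min for 8 (0.907%). The rule asked for at least 50 at 4 h and left out elements that had fallen under it by then. These shares of times are therefore in part fixed.

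**Figure D1:**
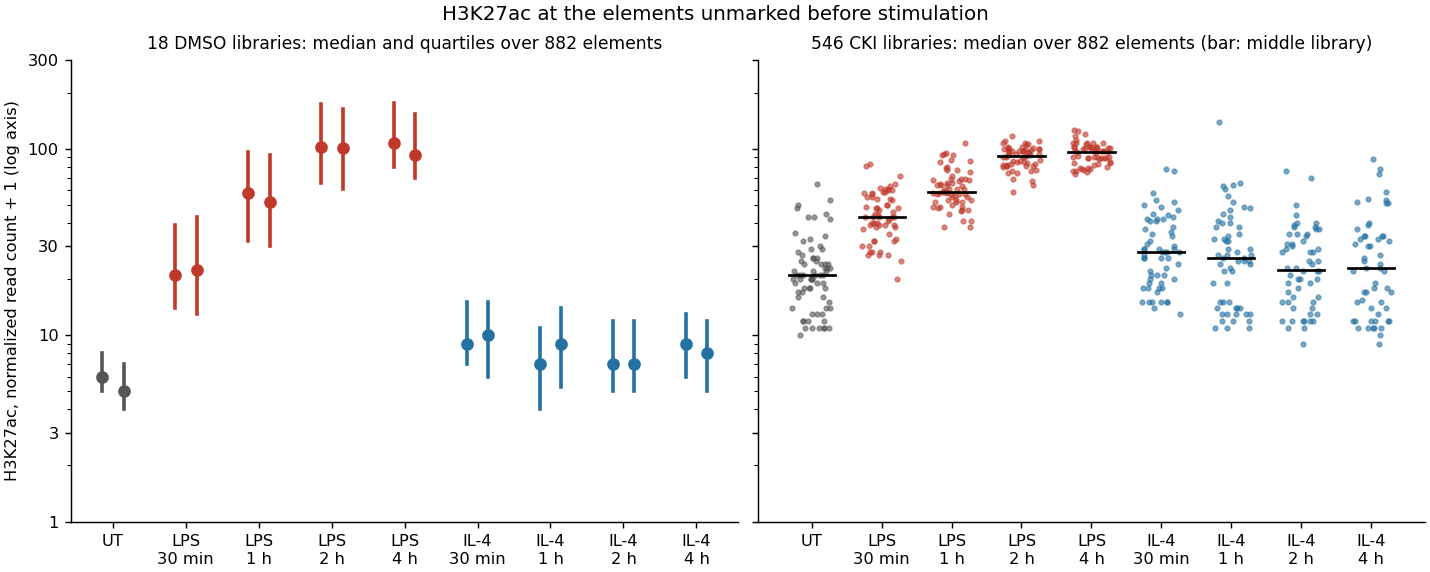
H3K27ac over the 882 elements in each group, as normalized read count plus 1 on a log axis. Left, points are medians and lines quartiles over the elements in each of the 18 DMSO libraries. Right, each point is the median over the elements in 1 of the 546 CKI libraries and the bar is the middle library. DMSO medians went from 5 and 4 in UT to 102 and 100 at 2 h of LPS and stayed between 6 and 9 after IL-4.

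The steps before 4 h were tested in the 12 DMSO libraries of 30 min, 1 h and 2 h, which the rule did not use, with limma across all 50716 elements with a mean of at least 10. A call needed an adjusted p under 0.05 and a log2 difference over 1, on the log2(value + 5) scale, and 877 of the 882 elements were tested. From 30 min to 1 h of LPS, 452 elements rose and 1 fell, where 6.8% of all tested elements rose. From 1 h to 2 h, 369 rose and 3 fell, where 6.4% of all rose. This count was 237 without replicate 2 of 1 h LPS and 241 after quantile normalization. From 30 min to 2 h, 703 rose and 0 fell, where 13.6% of all rose, and the median log2 difference was 1.91 against -0.06 over all elements. The rule asked for low UT and high 4 h LPS values, which in part fixes the direction of these steps. Median levels at 4 h of LPS were 151.5, 121, 98.3 and 71.5 in the 4 groups by the time they passed 50, an order that the grouping by level in part fixes.

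**Figure D2:**
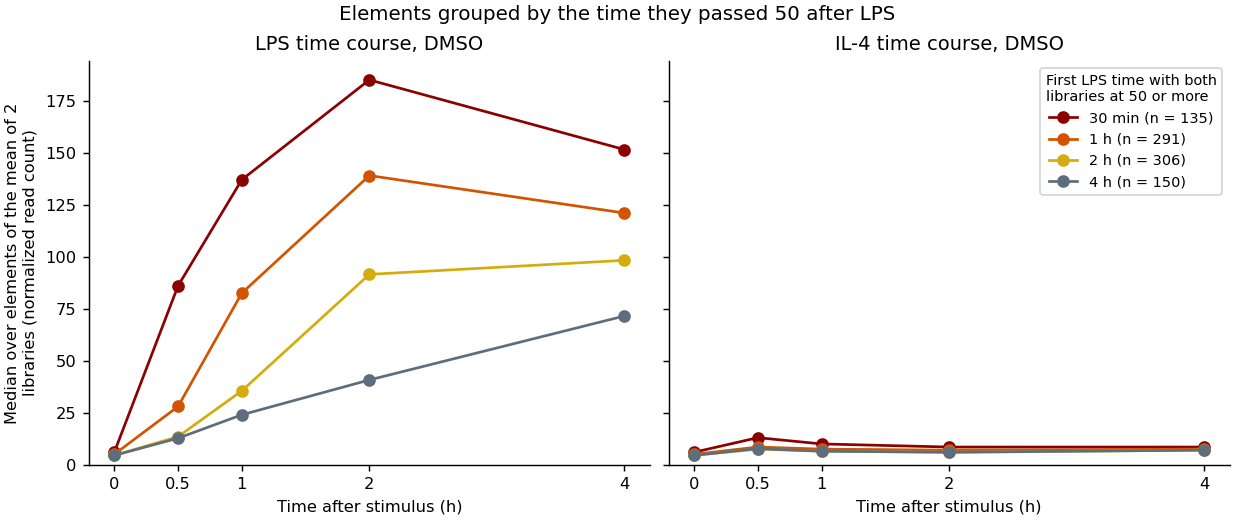
Median over elements of the mean of 2 DMSO libraries, by the first LPS time at which both libraries read at least 50, after LPS (left) and after IL-4 (right), against hours after the stimulus. The 135 elements that passed 50 at 30 min had medians of 86 at 30 min and 185 at 2 h of LPS, and none of the 4 groups had a median over 13 after IL-4.

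The element with the highest early levels lay 4108 bp from the start of Lad1 (chr1:135812468-135816512, intergenic), the gene of ladinin 1, a protein of basement membrane anchoring. It read 7 and 4 in UT, 244 and 310 at 30 min, 549 and 569 at 1 h, 920 and 839 at 2 h and 779 and 586 at 4 h of LPS, against 12 to 26 in the 8 IL-4 libraries. The groups of both stimuli did not overlap at any time. LPS exceeded IL-4 by a log2 difference of 3.70 ± 0.20 (SE, adjusted p = 2.77e-16) at 30 min and of 5.33 ± 0.20 (adjusted p = 1.32e-20) at 2 h.

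Among the other elements with the highest early levels, 2 shapes stood out. The A730009L09Rik element (chr16:84624270-84625834, intergenic, 109683 bp from the start) was near its ceiling at 30 min, with 297 and 342, then 446 and 439 at 1 h and 398 and 345 at 2 h. Its 2 h and 30 min values did not differ by the test (log2 difference 0.21 ± 0.26, adjusted p = 0.539). The Slco3a1 element (chr7:74373972-74377666, in an intron of this transporter gene) read 274 and 360 at 30 min, 415 and 384 at 1 h, 359 and 376 at 2 h and 219 and 151 at 4 h. The Itgb8 element (chr12:119105653-119108663, intergenic, 131644 bp from the start of the integrin beta 8 gene) started later, with 25 and 30 at 30 min, 335 and 332 at 1 h, 790 and 718 at 2 h and 462 and 449 at 4 h. At 30 min it did not differ from IL-4 by the test (log2 difference 0.31 ± 0.26, adjusted p = 0.331), and from 30 min to 2 h of LPS it rose by 4.55 ± 0.26 (adjusted p = 7.7e-16). The Jak2 element (chr19:29175791-29177514, intergenic, 75176 bp from the start of the gene of a cytokine receptor kinase) read 1 and 2 in UT, 145 and 220, then 355 and 283, then 542 and 550, and 584 and 435 at 4 h. It never exceeded 5 after IL-4. The Alpk2 element (chr18:65327372-65329712, intronic) and the Stk31 element (chr6:49499583-49503814, intergenic), near genes of kinase-like proteins, read 682 and 610 and 601 and 513 at 2 h of LPS.

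**Figure D3:**
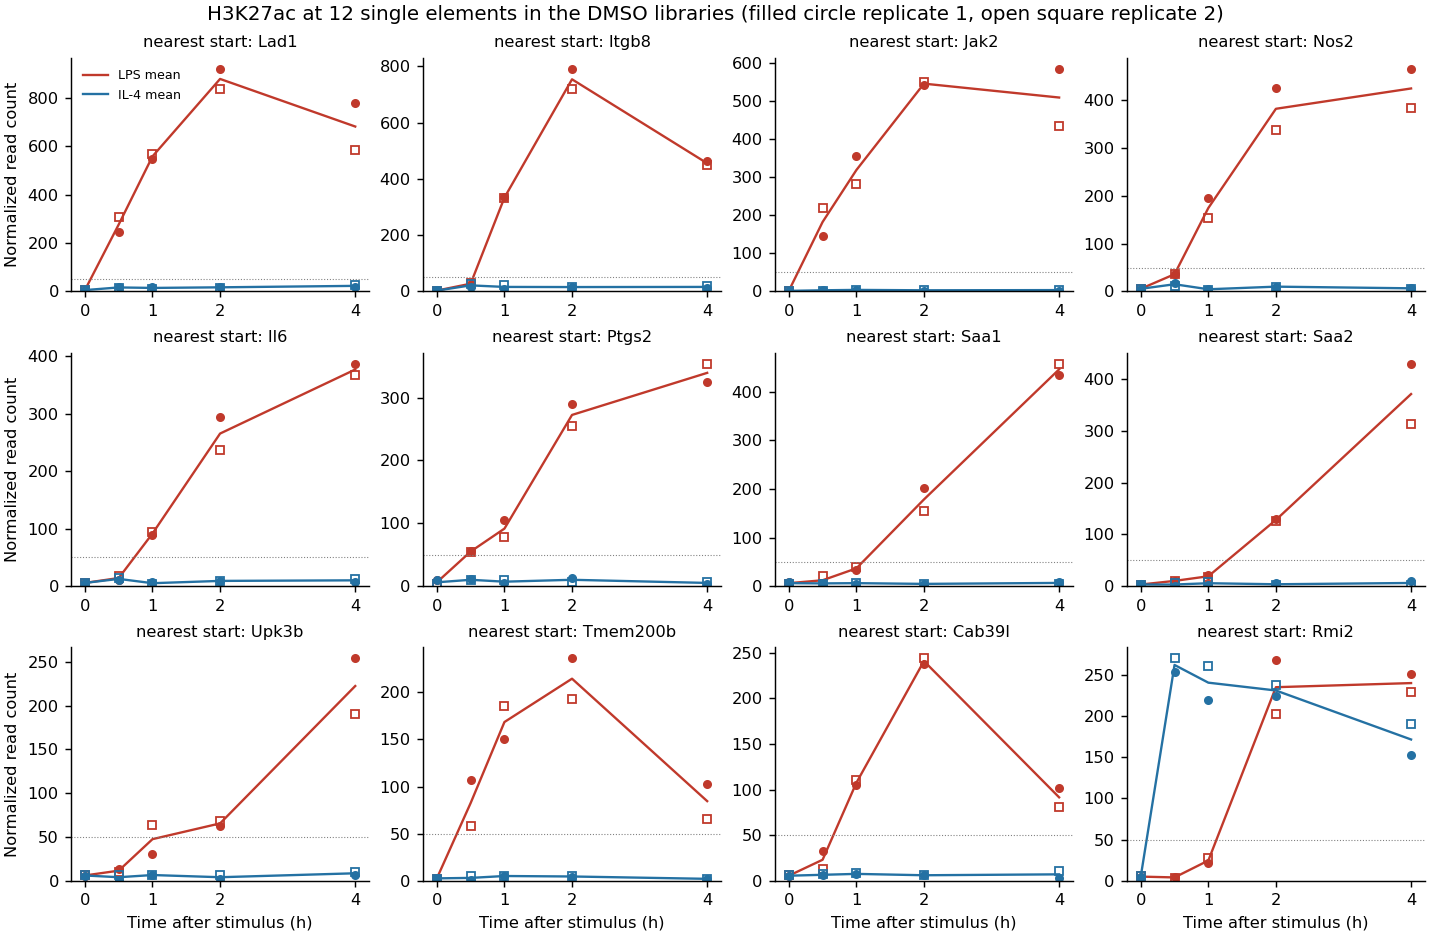
Normalized read count of 12 single elements in the DMSO libraries against hours after LPS (red) or IL-4 (blue), with both replicates and their mean. The dotted line is the threshold of 50. Saa1, Saa2 and Upk3b still climbed at 4 h, Tmem200b and Cab39l peaked at 2 h, and the Rmi2 element read 254 and 270 at 30 min of IL-4 and 5 and 3 at 30 min of LPS.

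After LPS the elements also rose in CKI-treated cells, in libraries that took no part in choosing them. In the 546 CKI libraries, with compound as a covariate, 720 elements were higher at 30 min of LPS than in UT, 850 at 1 h, 881 at 2 h and all 882 at 4 h, by an adjusted p under 0.05 and a log2 difference over 0.5. Of all 59167 elements tested, 20.6%, 22.4%, 24.0% and 21.1% were. A rise after LPS is the direction that the rule had selected for in DMSO. The median log2 difference over the elements was 0.81, 1.36, 1.90 and 1.94. In the CKI UT libraries the median over the elements was 9 to 64, with 20 in the middle library. These libraries took no part in the rule, and the middle value of their contrast was 21.9. The part of contrast in that level was not tested.

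From 2 h to 4 h of LPS the CKI libraries split the elements. Of the 882, 102 were higher at 4 h than at 2 h and 53 were lower, where 5.68% and 2.57% of all elements tested were, and the others did not pass. The 5 largest gains included 3 elements of the serum amyloid A locus on chromosome 7, whose genes encode acute-phase proteins. The Saa2 element (chr7:46747821-46749481, intergenic, 3139 bp from the start) read 10 and 10 at 30 min, 21 and 17 at 1 h, 130 and 126 at 2 h and 430 and 313 at 4 h in DMSO. In CKI libraries its median went from 98 at 2 h to 298 at 4 h (log2 difference 1.31 ± 0.14, adjusted p = 6.92e-17). The Saa1 element (chr7:46745134-46746850, intergenic) read 203 and 154 at 2 h and 435 and 458 at 4 h in DMSO and gained 1.25 ± 0.13 in CKI libraries (adjusted p = 4.42e-19). The third, in an intron of Hps5, a gene of lysosome-related organelle biogenesis, read 73 and 80 at 2 h and 152 and 135 at 4 h in DMSO. Outside this locus, the elements near Tmem178 (chr17:80924892-80926621) and Upk3b (chr5:136029405-136031038), a uroplakin gene, read 32 and 41 and 63 and 68 at 2 h and 117 and 130 and 254 and 191 at 4 h.

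The largest losses from 2 h to 4 h were at elements near Tmem200b, Cab39l, Ppm1l, Armc8 and Scp2d1. The Tmem200b element (chr4:131923050-131924836, in an exon of Epb41, a membrane skeleton gene) read 107 and 58 at 30 min, 151 and 186 at 1 h, 236 and 193 at 2 h and 103 and 66 at 4 h in DMSO. In CKI libraries it fell by 1.26 ± 0.14 on the log2 scale (adjusted p = 2.02e-17). The Cab39l element (chr14:59536110-59537696, in an intron of this gene of a kinase scaffold) read 238 and 244 at 2 h and 102 and 81 at 4 h and fell by 1.13 ± 0.13 in CKI libraries (adjusted p = 3.89e-16). All 5 had passed 50 in both DMSO libraries by 1 h, and their IL-4 values stayed between 1 and 13. Motif matches in the central 300 bases, which the rule did not use, were counted in both groups as a description. A C/EBP match lay in 35 of the 102 elements that rose from 2 h to 4 h (34.3%) and in 1 of the 53 that fell (1.89%), beside 20% of the 882. The shares were 15.7% and 24.5% for NF-kB, 24.5% and 30.2% for AP-1, 5.88% and 13.2% for ISRE, 12.7% and 11.3% for GAS and 4.9% and 9.43% for PU.1, beside 25.1%, 30.6%, 11.1%, 18% and 6.35% of the 882. These differences were not tested.

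The elements lay far from promoters. Only 20 (2.27%) had their centre within 1 kb of the start of a protein-coding gene, against 19.2% of all elements, while 500 (56.7%) were intergenic, 341 (38.7%) intronic and 21 (2.38%) exonic, against 35.3%, 42.5% and 2.95%. Their median distance from the nearest start was 25432 bp against 13177 bp, and 140 (15.9%) lay over 100 kb away against 9.12%. The UT condition by itself leaves out most promoters, as 82.3% of gene promoters read at least 50 in UT. These differences from all elements therefore in part follow from the rule. Their width was usual (median 1656 bp against 1652 bp). An element that already read at least 50 in UT lay within 10 kb of 166 of them (18.8%), against 42.2% of all elements, and the median distance to such an element was 32277 bp against 13430 bp. Median GC content of the central 300 bases was 44.3%, against 47.0% for all elements outside promoters, and the mean share of bases masked as repeats was 25.3% against 17.7%. In 19 elements at least 50% of the 51-base words occurred elsewhere in the genome, and values there depend on how reads with several positions were placed.

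Motif matches of inducible factors were more frequent than elsewhere. NF-kB matches were found in 221 elements (25.1%), against 8.48% of all elements outside promoters, GAS matches in 159 (18% against 10.2%) and ISRE matches in 98 (11.1% against 5.56%). GAS is the site class of STAT factors and ISRE that of interferon-activated complexes. AP-1 matches were found in 270 (30.6% against 23.6%) and C/EBP matches in 176 (20% against 16.2%). Matches to the PU.1 letters GAGGAAGT were rarer, in 56 (6.35% against 10.4%). In all, 635 elements (72.0%) held at least 1 of these matches. ISRE matches were found in 4.44% of the elements that passed 50 at 30 min, in 9.97% at 1 h, in 16.7% at 2 h and in 8.0% at 4 h. These shares are descriptions, since a match is not a bound site.

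**Figure D4:**
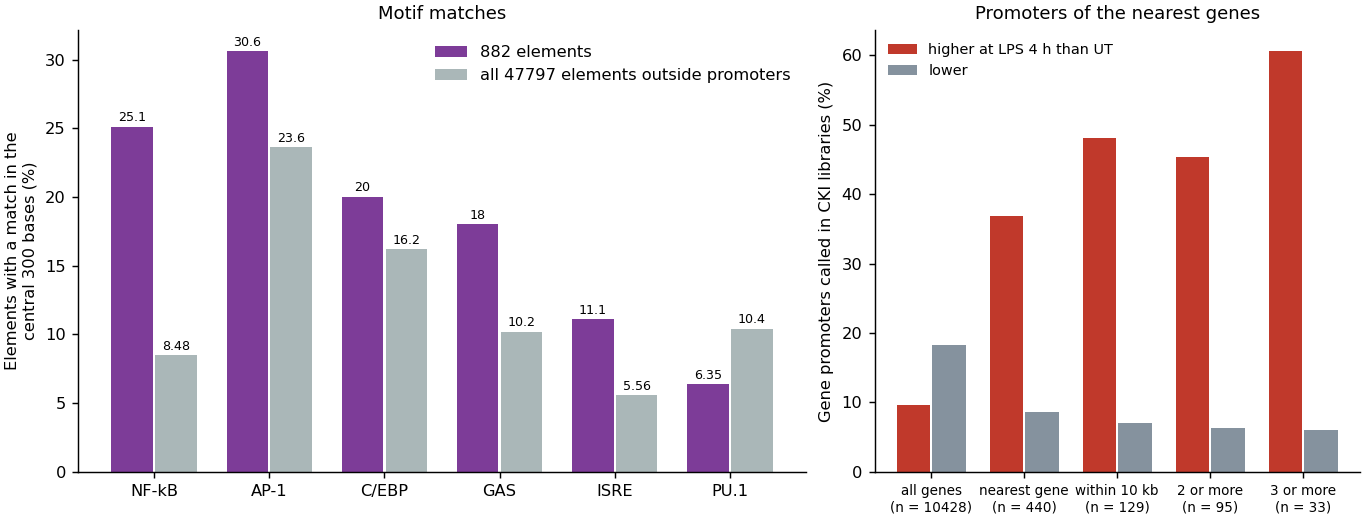
Left, percent of elements with a motif match in their central 300 bases, for the 882 elements and for all 47797 elements outside promoters. Right, percent of gene promoters called higher or lower at 4 h of LPS than in UT in the CKI libraries, for all genes with a promoter element, for genes nearest to a member outside promoters, and for those with a member within 10 kb, with 2 or more and with 3 or more members. NF-kB matches stood at 25.1% against 8.48%, and promoters called higher at 36.8% of the nearest genes against 9.61% of all.

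Part of the elements lay in groups along the chromosomes. When elements at most 50 kb apart were chained, 371 of the 882 (42.1%) shared a group with at least 1 other, in 94 pairs and 48 groups of 3 or more. No share for other elements chained this way is given here, so 42.1% cannot be called unusual. The 2 largest groups held 7 members each. One spanned 79675 bp on chromosome 19 (chr19:29149404-29229078) between Rcl1 and Jak2 and held 8 elements in all. Its members read 232 at 2 h and 355.5 at 4 h (median of means), all passed 50 within 1 h of LPS, and none read over 38 after IL-4. The other spanned 116203 bp around Edn1 (chr13:42248061-42364263), the gene of the vasoactive peptide endothelin 1, and held 12 elements in all. Its members started late, with a median of 8.5 at 30 min and 163.5 at 4 h of LPS, and passed 50 at 2 h or, for 2 of them, at 4 h. A group of 6 members lay between Btla and Cd200, immune inhibitory receptor and ligand genes, and another of 6 in Alpk2, where all 6 elements of the span were members. Groups of 5 lay at the Saa locus, at Il6, at A730009L09Rik and Mrpl39, and at Tnfaip3. All 5 elements at A730009L09Rik had passed 50 at 30 min, and of the 5 at the Saa locus 1 had done so by 1 h, 3 by 2 h and 1 at 4 h.

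The promoters of neighbouring genes gained H3K27ac more often than promoters in general. Outside promoters, the elements were nearest to 646 genes, of which 440 had a promoter element that was not itself a member, and member promoters were left out of all these counts. In the CKI libraries, 162 of these 440 promoters (36.8%) were higher at 4 h of LPS than in UT and 38 (8.64%) lower, against 9.61% and 18.3% of all 10428 gene promoters. Where the element lay within 10 kb of the start the share higher was 62 of 129 (48.1%), and for genes with 3 or more members 20 of 33 (60.6%). Unlike the elements, most of these promoters were marked at rest, with 78.9% reading at least 50 in UT against 82.3% of all. The promoters (in each case the non-member promoter element with the highest DMSO mean) of Nos2, inducible nitric oxide synthase, Adora2a, an adenosine receptor, Shisa3, Edn1 and Il6 gained 3.02, 3.0, 2.74, 2.65 and 2.58 on the log2 scale. Jak2, Tnfaip3, Inhba and Itgb8 gained 1.67, 1.58, 1.47 and 1.37. Other genes with 3 or more members had promoters that gained little or lost H3K27ac, with 0.16 at Csf2 (adjusted p = 0.22), 0.05 at Il10 (adjusted p = 0.447) and -0.63 at Foxn3 (adjusted p = 9.57e-39). The nearest start is not always the target, and no contact data were used here.

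Among lists of genes of the macrophage response, the list of cytokines and chemokines held most of these elements for its size. Of the 245 elements nearest to the 45 genes of this list, 34 (13.9%) were members, in 12 genes, against 1.49% of all elements. Edn1, which was put in this list though it encodes a vasoactive peptide, had the most, with 8. No Ccl or Cxcl chemokine gene was among the 12. The effector enzymes and receptors had 29 (8.81% of their elements, in 15 genes), the NF-kB and MAPK feedback genes 21 (5.34%, in 14 genes), interferon-stimulated genes 5 (2.67%, in 4 genes), inducible transcription factors 13 (2.48%, in 10 genes) and IL-4-induced genes 2 (1.08%, both at Flt1). The lists were chosen with earlier results of these data known, which may raise these shares, so they are descriptions. Against IL-4 at 2 h, in the DMSO libraries, 31 of 34, 27 of 29, 20 of 21, 4 of 4 tested, 12 of 13 and 1 of 2 were higher after LPS, where 22.7% of all tested elements were, and 1 of the effector elements, near Slc7a2, was lower. The choice of the elements in part fixes this direction.

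The elements of the cytokine and chemokine list differed in timing, and those of Il1a, Csf2 and Il10 are given as examples picked after their values were seen. Near Il1a, the gene of interleukin 1 alpha, the element 18486 bp from the start averaged 219.5 at 30 min, 168.5 at 1 h, 120.5 at 2 h and 55 at 4 h of LPS, a peak at the first time point. The 4 elements near Csf2, the gene of the growth factor GM-CSF, all had their highest mean at 1 h, from 53 to 128.5. The Il10 elements at 18802 and 17085 bp peaked at 2 h with 139 and 118.5 and the third at 4 h with 71 (Il10 encodes an anti-inflammatory cytokine). By contrast, 7 of the 8 elements nearest to Edn1 and all 4 of Il6 were highest at 4 h. The Il6 element with the highest level (chr5:29919290-29921293, intergenic, 92823 bp from the start) read 10 and 18 at 30 min, 89 and 94 at 1 h, 294 and 237 at 2 h and 387 and 367 at 4 h, and 3 to 14 after IL-4. At 30 min it did not differ from IL-4 by the test (log2 difference 0.09 ± 0.32, adjusted p = 0.835), and at 2 h it was higher by 4.26 ± 0.32 (adjusted p = 2.59e-13). The Tnfsf15 element, near the gene of a TNF family cytokine, read 28 and 12, 110 and 94, 294 and 284 and then 136 and 148.

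Of the 29 effector gene elements, 28 rose from 30 min to 2 h of LPS by the test above, and 4 had passed 50 at 30 min. The highest Nos2 element (chr11:78888410-78890142, intergenic, 31511 bp from the start) read 36 and 36 at 30 min, 196 and 153 at 1 h, 426 and 338 at 2 h and 465 and 384 at 4 h. The Ptgs2 element (chr1:150202354-150204151, 102920 bp from the start of the gene of the prostaglandin synthase COX-2) read 56 and 54, 105 and 78, 290 and 255 and then 325 and 354. The Mmp13 element, near a collagenase gene, rose faster and fell again, with 94 and 102, 185 and 185, 305 and 261 and then 114 and 130. From 2 h to 4 h in CKI libraries the Ptgs2 element gained 0.65 ± 0.15 (adjusted p = 9.97e-05) while the Mmp13 element fell by 0.83 ± 0.13 (adjusted p = 1.35e-09). The Procr element, near the gene of the protein C receptor, reached 561 and 545 at 2 h, and the Cd40 element, near a co-stimulatory receptor gene, 459 and 434. The Hdc element, in an intron of the gene that makes histamine, read 418 and 374 at 2 h, and 56.0% of its 51-base words were repeated elsewhere.

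Of the 21 elements near NF-kB and MAPK feedback genes, 13 had passed 50 at 30 min and 6 more by 1 h. The shares of the 882 were 15.3% and 33%. From 30 min to 2 h 14 rose, where 80.2% of the tested members and 13.6% of all tested elements did. The Tnfaip3 element with the highest 2 h level (chr10:19081486-19083111, 66641 bp from the start of the gene of A20, an inhibitor of NF-kB) read 145 and 157 at 30 min, 305 and 309 at 1 h, 370 and 391 at 2 h and 536 and 423 at 4 h of LPS, and 9 to 42 after IL-4. Of the 5 elements nearest to Tnfaip3, 4 had passed 50 at 30 min. The Bcl2a1a and Bcl2a1d elements, near genes of a survival protein, reached 778 and 711 and 341 and 425 at 2 h, and with 74.8% and 67.4% of their 51-base words repeated their values cannot be assigned to 1 copy with certainty. The Birc3 element, near an apoptosis inhibitor gene, read 207 and 237 at 2 h, and the Dusp2 element, near the gene of a MAP kinase phosphatase, 207 and 236. Among transcription factors the highest was the element near Batf, of the AP-1 family (chr12:85665282-85667658), with 117 and 109 at 30 min, 300 and 279, 378 and 417 and then 644 and 622.

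IL-4 left most of these elements unmarked. In DMSO, 645 of the 882 (73.1%) read under 20 in all 8 IL-4 libraries, and the median over the elements was 6 to 9 in each of them. The rule asked for low UT values, which in part fixes low IL-4 values. No share for other elements with low UT values is given here, so 73.1% cannot be called unusual. LPS exceeded IL-4 for 439 elements at 30 min, 760 at 1 h and 847 at 2 h, where 13.3%, 19.2% and 22.7% of all elements tested were higher. IL-4 exceeded LPS for 30, 11 and 1, where 17.6%, 17.3% and 20% of all were lower. The median log2 difference over the tested elements was 1.01, 2.25 and 3.19. The difference between stimuli grew from 30 min to 2 h, by a test of the difference itself, for 676 elements and shrank for 0, where it grew for 16.7% of all. Low UT and high 4 h LPS values chose the elements, which in part fixes the direction of all counts of LPS against IL-4. Within the IL-4 course, 12 rose and 45 fell from 30 min to 2 h, where 1.04% and 7.67% of all did. In the CKI libraries, 146 elements (16.6%) were higher at 30 min of IL-4 than in UT and 82 (9.3%) at 4 h, near the 12.1% and 9.36% of all elements, and 6 were lower at 4 h where 11.3% of all were. Elements chosen for low UT values have less room to fall below UT than most others. At 4 h, 865 were higher after LPS than after IL-4 in CKI libraries, where 22.0% of all were.

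A small set was marked by both stimuli. At 1 or more IL-4 times, 28 elements read at least 50 in both DMSO libraries. Of these 28, 25 were also higher at 4 h of IL-4 than in UT in CKI libraries. No share of other elements is given here for these counts. The 2 elements in the Rmi2 gene, which encodes a subunit of a DNA repair complex, led this set and lie 56926 and 61181 bp from the start of Socs1, a feedback inhibitor of JAK kinases. The first (chr16:10841661-10843263, in an exon) read 4 and 6 in UT, 254 and 270 at 30 min, 220 and 261 at 1 h, 224 and 238 at 2 h and 153 and 190 at 4 h of IL-4. Under LPS the same element read 5 and 3 at 30 min and 22 and 27 at 1 h, and then 268 and 202 at 2 h and 251 and 229 at 4 h. IL-4 exceeded LPS at 30 min (log2 difference of LPS minus IL-4 -4.90 ± 0.21, adjusted p = 7.29e-19), and at 2 h no difference was found (0.01 ± 0.21, adjusted p = 0.967). The second Rmi2 element (chr16:10845904-10847530, intronic) read 151 and 89 at 30 min of IL-4 and 10 and 1 at 30 min of LPS, and 188 and 200 against 83 and 128 at 2 h.

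The Serpina3g element (chr12:104230195-104231881, intergenic, near a protease inhibitor gene) had the same order, with 96 and 56 at 30 min of IL-4 against 3 and 6 of LPS, and 99 and 104 against 130 and 96 at 2 h. One Edn1 element (chr13:42291440-42293055) read 61 and 52 at 30 min of IL-4 against 5 and 12 of LPS, and 101 and 101 against 179 and 184 at 4 h. The Syce1l element, 1 of the 20 at a promoter, read 111 and 122 at 30 min of IL-4 and 48 and 36 of LPS. At Cish, the gene of a feedback protein of cytokine receptors, IL-4 means of 44, 87.5, 118 and 140.5 at the 4 times stood beside 206.5 at 2 h and 84 at 4 h of LPS. The element 82312 bp from Fas, the gene of a death receptor, went down instead and was picked for that after its values were seen, with IL-4 means of 151 at 30 min, 107.5, 64 and 37 at 4 h. Elements near Adora2a, Batf and Il6 also belonged to the 28. The Batf element read 42 to 103 after IL-4 and stayed higher after LPS at 2 h by 2.02 ± 0.18 (adjusted p = 2.27e-11). The 1 element that was lower after LPS than IL-4 at 2 h lay 6766 bp from Slc7a2, an arginine transporter gene, with means of 34.5 and 76.5 and a log2 difference of -1.07 (adjusted p = 0.00272).

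The elements as a group gained H3K27ac after LPS with every CKI that could be compared. Of the 58 CKIs, 55 had both a UT and a 4 h LPS library, and in all 55 the median over the 882 elements was higher at 4 h of LPS than in UT. The number of elements above their UT value ran from 576 for Talmapimod, a p38 inhibitor, to 882, with a median of 873. Low UT and high 4 h LPS values in DMSO chose the elements, which in part fixes this direction. No share over all elements is given here for these counts. The Talmapimod UT library was the one with most of these elements at 50 or more, 615, where the middle CKI UT library had 12.

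The effect of each CKI after LPS was tested in the 241 CKI LPS libraries, with time as a covariate. Each compound was set against the mean of the other CKIs in its run of columns of the deposited table. Most CKIs had 1 library per time. The spread behind each SE and p-value therefore came from all compounds together and not from replicates of that CKI. DMSO was left out, since its 4 h values had chosen the elements. Over the elements the median log2 difference lay within 0.2 of 0 for 55 of the 58 CKIs. It was lowest for Mubritinib (-0.31), Afatinib (-0.19), OSI930 (-0.19), BMS387032 (-0.14) and Pimasertib (-0.13) and highest for Pacritinib (0.22), TG100115 (0.21), Bafetinib (0.20), Telatinib (0.19) and Volasertib (0.19). The medians over all elements for the same CKIs were -0.05, -0.08, -0.01, -0.07 and -0.13, and 0.38, 0.01, 0.09, 0.03 and 0.08. Under other scalings, references or library filters the median over the elements changed sign for Pacritinib (lowest value -0.11), Bafetinib (-0.05), Telatinib (-0.04), OSI930 (highest value 0.01) and Pimasertib (0.01) and kept it for the other 5. Of 51156 pairs of element and CKI, 320 were called lower, at 268 elements, and 138 higher, at 125 elements, at an adjusted p under 0.05 and a log2 difference over 0.5, and 44 CKIs had no call. PH797804 alone gave 160 of the lower and 85 of the higher calls. No share over all elements is given here for the pooled pairs, so these counts cannot be called many or few. For the CKIs with most calls the shares of all elements are given below.

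**Figure D5:**
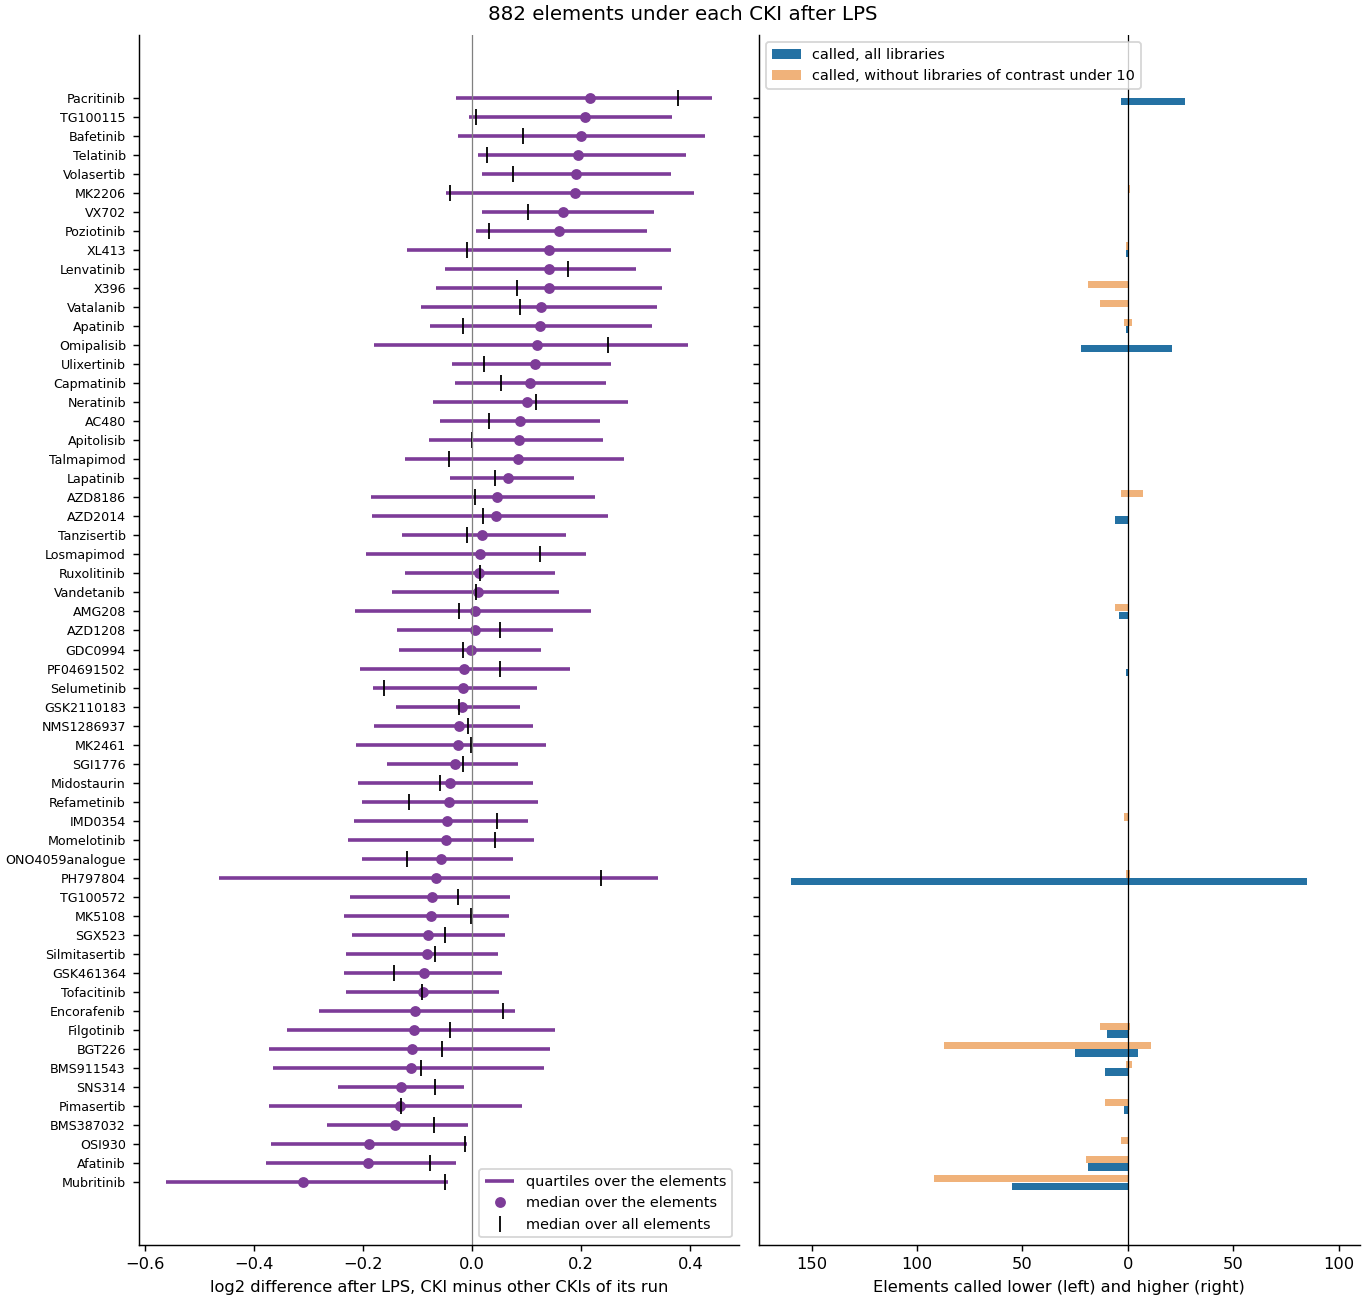
Left, log2 difference after LPS of each of the 58 CKIs from the other CKIs of its run, as median (point) and quartiles (line) over the 882 elements, with the median over all elements as a black tick. Right, number of the 882 elements called lower (left of 0) and higher (right of 0), with all libraries (blue) and without libraries of contrast under 10 (orange), where Omipalisib and AZD2014 had no library left. Mubritinib had the lowest median and 55 elements called lower, and 92 without the low-contrast libraries. The 160 and 85 calls of PH797804 became 1 and 1.

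Mubritinib, an inhibitor of the receptor kinase ERBB2, was lower at 55 of the elements (6.24%) and higher at 0, where 1.45% of all elements were lower. Of the 55, 15 were called under each of 9 other settings as well, and these 15 were singled out after their values were seen. They included elements near Tnfaip3, Dusp2, Il1b, Adora2a and Fosl2, a gene of the AP-1 family. At the Dusp2 element (chr2:127313241-127314881) the Mubritinib libraries read 23 at 30 min, 35 at 1 h, 142 at 2 h and 142 at 4 h, where the other CKIs of the run had medians of 102, 193.5, 206 and 171, a log2 difference of -1.22 (adjusted p = 6.7e-04). The values at 30 min and 1 h lay below every other CKI of the run, at 61 to 126 and 105 to 274, and those at 2 h and 4 h lay within their range. At the Adora2a promoter element (chr10:75323790-75325417) they read 23, 70, 90 and 92 beside medians of 121.5, 157, 161 and 141. At the Il1b element (chr2:129409688-129411396, 39403 bp from the start of the gene of interleukin 1 beta) they read 30, 58, 52 and 112 beside 120.5, 116.5, 117 and 119. In the 4 Mubritinib libraries 1 read was worth 4.75 to 11.7, so the lowest of these values rest on few reads. Without libraries in which 1 read was worth 10 or more, Mubritinib had 46 elements called lower, without libraries of contrast under 10 it had 92, and after quantile normalization 28.

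BGT226, an inhibitor of PI3K and mTOR kinases, was lower at 25 elements (2.83%) and higher at 5 (0.567%), where 1.32% and 1.79% of all were. Of these, 13 and 1 were called under all 9 other settings. The counts were 87 and 11 without libraries of contrast under 10 and 46 and 8 without those with 1 read worth 10 or more. At the Etv6 element (chr6:134180629-134182300, 145495 bp from the start of this transcription factor gene) its libraries read 47, 81, 95 and 40 at the 4 times, beside medians of 105, 156.5, 172.5 and 171 in the other CKIs of the run, a log2 difference of -1.18 (adjusted p = 1.9e-05). At 1 h, 2 h and 4 h they lay below all others of the run. The Dusp2 element was again lower, with 43, 76, 111 and 68 beside 94, 137.5, 196 and 159 (log2 difference -0.91, adjusted p = 0.00932). The Ly75 element, near an endocytic receptor gene, was the 1 called higher throughout, with 90, 163, 184 and 228 beside 71, 72, 92 and 121. Here 1 read was worth 1.35 to 5.45.

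PH797804, a p38 inhibitor, was lower at 18.1% of the elements and higher at 9.64%, where 15.3% and 28.7% of all elements were, so its lower share was near the background. Its 30 min LPS library was the shallowest of the series, with 1 read worth 23.6 and 12451 elements at 0, and its 4 LPS libraries had a contrast of 3.37 to 10.3. Pacritinib, a JAK2 inhibitor, was lower at 3 and higher at 27 elements (3.06%), where 20.6% of all were higher. Without libraries of contrast under 10 both counts were 0. Omipalisib, another PI3K and mTOR inhibitor, was lower at 22 (2.49%) and higher at 21 (2.38%), where 1.82% and 4.43% of all were. Its lower share was near that of all elements and its higher share below it. Of these calls, 11 and 4 were made under all 8 other settings. The counts were 80 and 18 after quantile normalization and 41 and 10 without libraries with 1 read worth 10 or more. Its lower calls included elements near Nfkbiz and Bcl2a1a, and its 4 LPS libraries had a contrast of 5.21 to 7.56. Afatinib was lower at 19 (2.15%), BMS911543 at 11 (1.25%) and Filgotinib at 10 elements (1.13%), where 1.02%, 2.31% and 0.549% of all were. The BMS911543 share was below that of all elements. Of these calls 0, 0 and 2 were made under every other setting. The part of depth and contrast in the calls of these CKIs was not tested further.

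Single elements were rarely called in several CKIs. The 5 called lower in most CKIs were each lower in 3, near Egfl6, Atp10a, Jak2, Rcl1 and Src, a tyrosine kinase gene. The Jak2 and Rcl1 elements belong to the group on chromosome 19. The Jak2 element was lower with Afatinib (-0.84 ± 0.18, adjusted p = 0.00317), PH797804 (-1.54 ± 0.24, adjusted p = 4.08e-08) and Pacritinib (-0.62 ± 0.24, adjusted p = 0.0429). The Egfl6 element on the X chromosome was lower with AZD2014 (-1.85), Omipalisib (-1.13) and PH797804 (-0.88). Elements near Jazf1, Helt and Btbd3 were called higher with PH797804 and Pacritinib, and so were those near Ston2 and Cmpk2. Each of these lists holds PH797804 calls, whose values rest on shallow libraries. None of the 3 Jak2 calls was made under every other setting. The Egfl6 calls of AZD2014 and Omipalisib were, and that of PH797804 was not.

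The thresholds cut through a continuum. The lower of the 4 h LPS values was 50 to 59 for 153 of the 882 elements and at least 200 for 130, and a further 242 elements with the same UT condition read 40 to 49. Just inside lay elements near Tnfaip3 (75 and 51), Herc4 (60 and 51) and Upb1 (71 and 51), and just outside elements near Apaf1 (71 and 49), Slc22a5 (78 and 49) and Mast4 (49 and 51). The higher UT value was 8 or 9 for 284 elements, and 290 elements with a UT value of 10 or 11 met the LPS condition but were left out. Just outside on that side lay elements near Mrpl39, Macc1 and Traf1, with 803 and 654, 484 and 464 and 568 and 456 at 4 h of LPS.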

How the data were processed

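H3K27ac ChIP-seq of mouse BMDMs was deposited as 1 table of 59190 elements and 564 libraries. Per the methods, the authors cut adapters off, shortened the single-end reads to 51 bp, aligned these to mm10, counted reads around ATAC-seq summits and scaled libraries by invariant peaks. The labels' processing notes name Bowtie and SAMtools. The deposited values are therefore scores, normalized read counts rounded to whole numbers, so no count model was used. The depth given for each library was worked out from the gaps between low values. Each of the 564 columns matched 1 sample and 0 were left unused.

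Positions were read against the protein-coding genes of the GENCODE annotation on the mm10 sequence. Bases were read from the RefSeq copy of that genome (pysam 0.24.0). A promoter lay within 1000 bp of a protein-coding start. Values were tested as log2(value + 5) with limma 3.58.1 (R 4.3.3, trend, Benjamini-Hochberg adjustment over all elements with a mean of at least 10) in 3 fits: DMSO libraries at 30 min, 1 h and 2 h; CKI libraries with condition and compound; CKI LPS libraries with time and compound. Fold changes on this scale understate the change of low values. The tests were checked on simulated data. A run is a block of neighbouring CKI columns of the table, which no label calls a batch.

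The members and gene lists were chosen with earlier results of these data known. The sequence of 1 further element is not reported here. Elements were named by rule: the highest early levels, the largest gains and losses from 2 h to 4 h, the highest IL-4 levels, 1 per listed gene by its 2 h level, those called with most CKIs, and those nearest to the thresholds. Elements of Il1a, Csf2, Il10, Slc7a2, Cish and Fas, further Tnfaip3, Edn1, Il6 and Adora2a elements, and those named for Mubritinib, BGT226 and Omipalisib were added after their values were seen. Alternatives were other scalings, thresholds, pseudocounts and filters, a replicate block and left-out libraries.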

Additional observations from a re-analysis of the deposited data

Results flagged for a closer look

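The difference between LPS and IL-4 in the DMSO libraries was larger at 2 h than at 30 min for 676 of the 877 elements tested, by a test of that change itself (limma, adjusted p under 0.05 and a log2 difference over 1), and smaller for 0. The median change was 2.09 on the log2 scale, and 858 of the 877 elements had a change above 0. Low UT and high 4 h LPS values chose the elements, which in part fixes this direction.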

How the results depend on the processing

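The direction of 36 single values named in the text held under all 567 alternative values computed for them, as did their side of the threshold. None of these reversed. Not every named value is among the 36, and calls of single CKIs held less often. Of the lower calls, 15 of 55 for Mubritinib and 13 of 25 for BGT226 were made under every other setting. This was so for 0 of 19 for Afatinib, 0 of 3 for Pacritinib and 1 of 160 for PH797804. The median over the elements turned sign under at least 1 other setting for Pacritinib (0.22, lowest -0.11), Bafetinib (0.20, -0.05), Telatinib (0.19, -0.04), OSI930 (-0.19, highest 0.01) and Pimasertib (-0.13, 0.01). Of the counts, 230 alternative values stayed within 1.5 times the main one and 28 did not. The number of elements chosen was 72 with thresholds of 5 and 100, 2187 with 20 and 50, and 32 after quantile normalization of all libraries. With quantile normalization, 282 elements rose from 30 min to 1 h of LPS and 241 from 1 h to 2 h, and 51 pairs of element and CKI were higher. At a log2 threshold of 1 in the CKI libraries, 326 elements were higher at 30 min of LPS than in UT, 33 were higher and 0 lower at 4 h of IL-4, 7 rose and 4 fell from 2 h to 4 h of LPS, and 155 pairs were lower and 44 higher. The 6 elements lower at 4 h of IL-4 became 14 with a pseudocount of 1, and 15, 2 and 3 without run 1, 4 or 5. At a log2 threshold of 0.5, 3 elements fell from 30 min to 2 h of LPS in DMSO. Against all other CKIs in place of the run, 692 pairs were lower and 217 higher. Alternatives chosen after seeing the data left out CKI libraries of contrast under 10 (21 elements lower at 4 h of IL-4, 25 pairs higher), those with 1 read worth 10 or more (11 elements lower at 4 h of IL-4), or PH797804 and Pacritinib (201 pairs lower, 36 higher). Leaving out each DMSO library in turn gave 237 to 374 elements that rose from 1 h to 2 h of LPS, with 237 without replicate 2 of 1 h LPS, and 0 to 2 that fell from 30 min to 2 h. The cause of these changes was not tested. Replicate numbers do not pair the DMSO libraries, since deviations from group means correlated at -0.087 to 0.066 over 36 pairs of groups. With a replicate block, 440, 759 and 847 elements were higher after LPS than IL-4 at 30 min, 1 h and 2 h, 455, 369 and 703 rose from 30 min to 1 h, 1 h to 2 h and 30 min to 2 h of LPS, 0 fell over the last, and the difference between stimuli grew for 672. Depth limits single CKI values, as 1 read was worth up to 23.6 and each CKI had about 1 library per time.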
